A study of Arabidopsis thaliana with 4 samples.

Results

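The GDSL lipase/acylhydrolase family was described across the 4 root libraries of a study of auxin signalling in Arabidopsis. A locus was counted as a member when the description of any of its transcript models in the deposited tables contained the letters GDSL, and reads of its models were added up. In all, 65 loci of the 23425 with at least 1 read met this rule. The roots came from 8-day-old seedlings of wild type Col-0 (WT) and of *arf7*, a T-DNA insertion line in the auxin response factor gene *ARF7*, represented by a single allele. Each genotype was sampled untreated (Mock) and after 4 h in 10 μM NAA, the synthetic auxin naphthalene acetic acid, and the 4 conditions *arf7*-NAA, *arf7*-Mock, WT-NAA and WT-Mock had 1 library each. The labels place the seedlings in the dark, whereas the study's methods give a photoperiod. The dose is that of the methods, and the headers of the deposited comparison tables mark the NAA libraries with a different number that is not explained. None of the differences below could be checked against replicates, so each test on reads compares 2 or 4 libraries and not the conditions.

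GDSL proteins are esterases and lipases whose active-site serine lies in a short Gly-Asp-Ser block near the start of the protein. Plants carry large families of them, and members build or break down the polyesters cutin and suberin, act in defence and in seed and pollen lipid metabolism, or are part of the secretory pathway. In roots, suberin coats the endodermis, and an emerging lateral root has to pass through that layer. *ARF7* activates auxin-responsive genes, among them *LBD16*, *LBD18* and *LBD29*, on which lateral root formation depends.

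The coding sequences of all 65 loci were read from the RefSeq annotation of TAIR10.1. They encoded 245 to 431 amino acids with a median of 370. Gly-Asp-Ser occurred within the first 100 codons of 63 of them, and the codons for *MVP1* and AT1G29670 held no such block there. Leucine followed the serine in 18 members, isoleucine in 12 and asparagine in 10. The first Gly-Asp-Ser of each was taken, and whether it holds the active-site serine was not checked. The coding stretch around the block is shown for the members on which the results turn and for the most abundant member, *GLL22*, with the 4 codons of the block in capitals.
CDEF1: ttcgtgtttGGAGACTCTGTCttcgacaac
AT5G55050: tacgtgttcGGAGATTCGTTAgttgatgcc
AT3G16370: atgacattcGGTGACTCTGTAgttgatgtc
ARAB-1: atcagctttGGTGATTCCATCgcagacacc
AT5G45670: ttcatatttGGTGACTCTTTGgttgataat
AT1G29660: ttcatctttGGTGATTCTTTGgttgacaat
AT4G16220: tttgtgttcGGAGATTCATTGgtggaagtc
AT5G45950: cttgtgtttGGAGATTCTAGTgtcgatcca
GLL22: ttcacctttGGTGACTCCAACttcgacgcc
The codons after the serine read Val in *CDEF1* and AT3G16370, Ile in *ARAB-1*, Ser in AT5G45950, Asn in *GLL22* and Leu in the other four. Over the 2080 pairs of members the median identity, as a percent of the shorter coding sequence, was 55.1%. The highest was 92.3%, between *GLL22* and AT1G54010, followed by 92.1% between *ARAB-1* and AT1G28660. Both pairs are neighbours on chromosome 1. Although the deposited counts are of uniquely assigned reads, the split of reads within these 2 pairs is uncertain. *CDEF1* had no close relative among the members, its nearest being AT2G19050 at 67.6% identity.

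The libraries held between 7.03 M and 7.57 M assigned reads (M, 1000000), and between 21384 and 21633 loci had reads in each. *ARF7* itself had 3 reads in *arf7*-NAA and 8 in *arf7*-Mock, against 12 in WT-NAA and 6 in WT-Mock. These counts are too low to check the genotype labels (exact binomial test, P = 0.036 between the NAA libraries and P = 0.60 between the Mock libraries). The 7 root markers were present in every library, and their reads were mostly those of *PYK10*, a root beta-glucosidase, at 12540 RPKM (reads per kilobase of transcript per M assigned reads) in *arf7*-NAA, 12530 in *arf7*-Mock, 10800 in WT-NAA and 11780 in WT-Mock. *CASP1*, a marker of the endodermis, was highest in WT-NAA, at 243 RPKM in *arf7*-NAA, 239 in *arf7*-Mock, 378 in WT-NAA and 213 in WT-Mock. This was not particular to *CASP1*. *SCR* was also highest in WT-NAA (53.2 RPKM, elsewhere 43.4 to 48.0), as were *COBL9* (25.5, elsewhere 18.9 to 20.9) and *EXPA7* (63.4, elsewhere 40.0 to 54.1). *SHR*, *PIN2* and *PYK10* were not. The 4 shoot markers summed to 618 reads in *arf7*-NAA, 103 in *arf7*-Mock, 258 in WT-NAA and 351 in WT-Mock, mostly those of *LHCB1.3*. The 5 seed markers summed to 30 reads in *arf7*-NAA and to 1, 0 and 0 in the other libraries in the same order, and the storage protein genes *CRA1* and *CRC* were at 0 in all of them. The 4 pollen markers summed to 2, 3, 1 and 0 reads.

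The family as a whole took a similar part of each library. It received 21513 reads in *arf7*-NAA, 23089 in *arf7*-Mock, 26412 in WT-NAA and 25045 in WT-Mock, which is 3062, 3193, 3561 and 3308 per M reads. Reads were concentrated on few members, since 3 loci held 63.6% to 69.7% of the family's reads in each library. Of the 65 loci, 46 had reads in all 4 libraries, 28 had at least 20 reads in each of them, and 23 had fewer than 20 reads in the 4 libraries together. A mean level of at least 10 RPKM was reached by 18 members, while 29 stayed below 1 RPKM. RefSeq names GDSL in the protein product of 101 genes on the 5 chromosomes, of which 65 are the members described here, 7 had reads under another description and 29 had no read listed.

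The most abundant member was *GLL22* (AT1G54000), which encodes a GDSL lipase-like protein found together with PYK10 in root extracts. Its level was 690 RPKM in *arf7*-NAA and 813 RPKM in *arf7*-Mock, against 922 RPKM in WT-NAA and 818 RPKM in WT-Mock. AT2G23540 came next with a mean of 448 RPKM, then AT1G74460 with 207 RPKM and *MVP1* (AT1G54030) with 191 RPKM. *MVP1* encodes a protein needed for the organisation of the endoplasmic reticulum and for traffic through the secretory pathway. AT1G54010 had a mean of 120 RPKM and AT5G03610 of 96.1 RPKM, and *CDEF1* (AT4G30140) ranked seventh with 49.2 RPKM. The other three of the leading 10, AT3G53100, AT3G50400 and AT3G14220, had means of 40.4, 38.1 and 29.0 RPKM. In the plot of levels by library, most of these members formed tight groups of points and *CDEF1* did not. The highest level of *CDEF1* was 26.9 times its lowest, whereas for AT3G53100 this ratio was 1.02, the smallest among the 46 members with reads in every library.

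**Figure D1:**
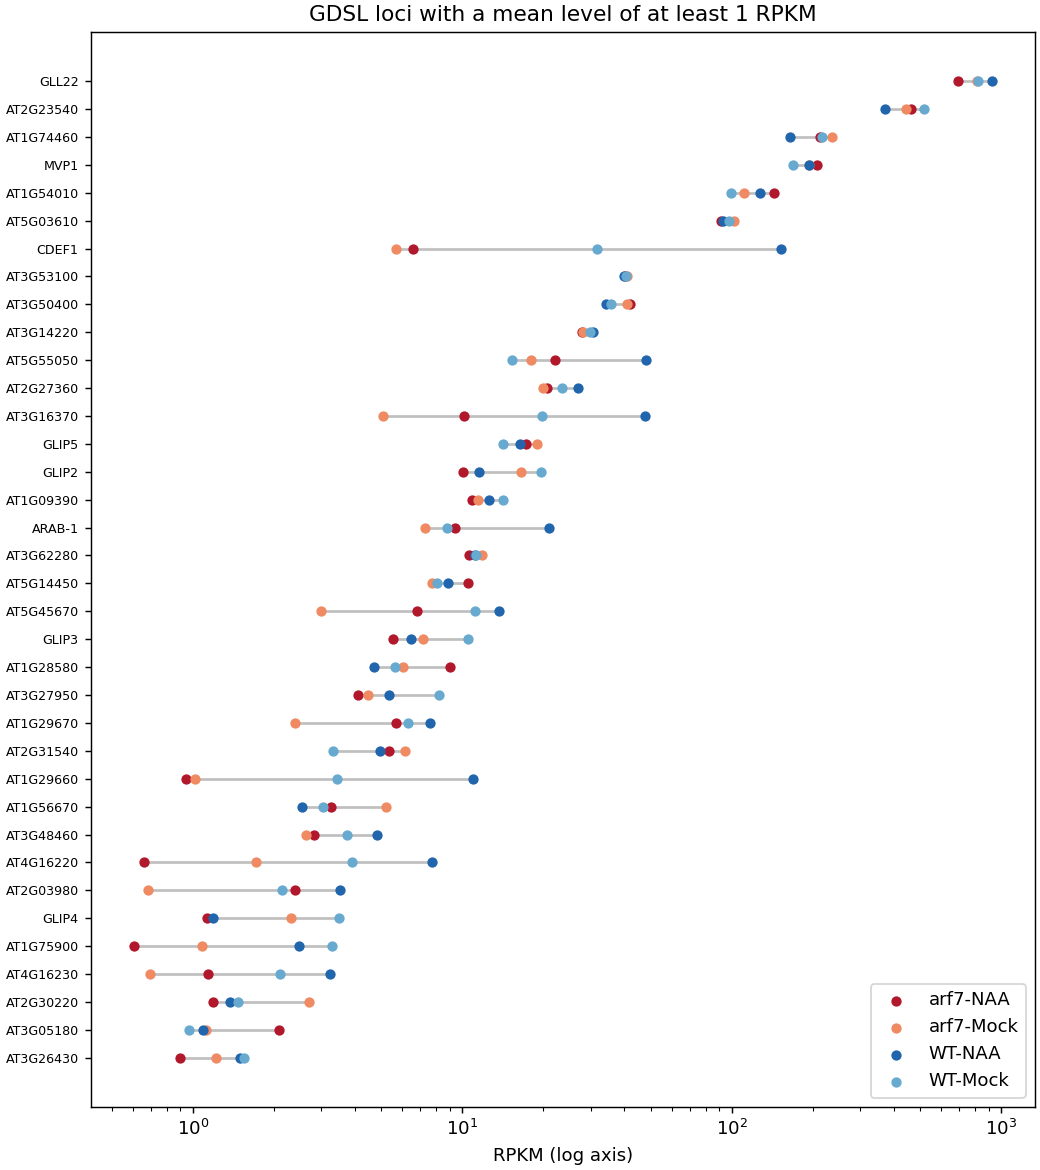
RPKM (log axis) of the 36 GDSL loci with a mean level of at least 1 RPKM, one row per locus ordered by mean level, with 1 point for each library and a grey line from the lowest to the highest. *CDEF1*, AT4G16220, AT1G29660 and AT3G16370 span the longest lines, and AT3G53100 has its 4 points on top of each other.

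A locus was called in a comparison when the exact two-sided binomial test of its reads, given the library totals, gave P under 0.0001 and its RPKM ratio was at least 2-fold, a log2 ratio of at least 1 in size. Intervals below are 95% intervals of counting error. In total 9 of the 65 members (13.8%) were called in at least 1 of the 4 comparisons or in the difference between the NAA responses, where 3.13% of all 23425 loci were, and 56 members were called in none. These 9 had 20 calls between them. Assuming a coefficient of variation of 0.2 between replicates in edgeR, 7 calls remained. *CDEF1* kept its 3 calls in single comparisons. AT3G16370 kept 2, both between the genotypes, and lost its call in WT-NAA VS WT-Mock. The others kept were those of AT1G29660 and AT4G16220 in *arf7*-NAA VS WT-NAA. The plot of the called members shows that 5 of the 9 had their highest level in WT-NAA with an interval clear of the other 3 libraries.

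**Figure D2:**
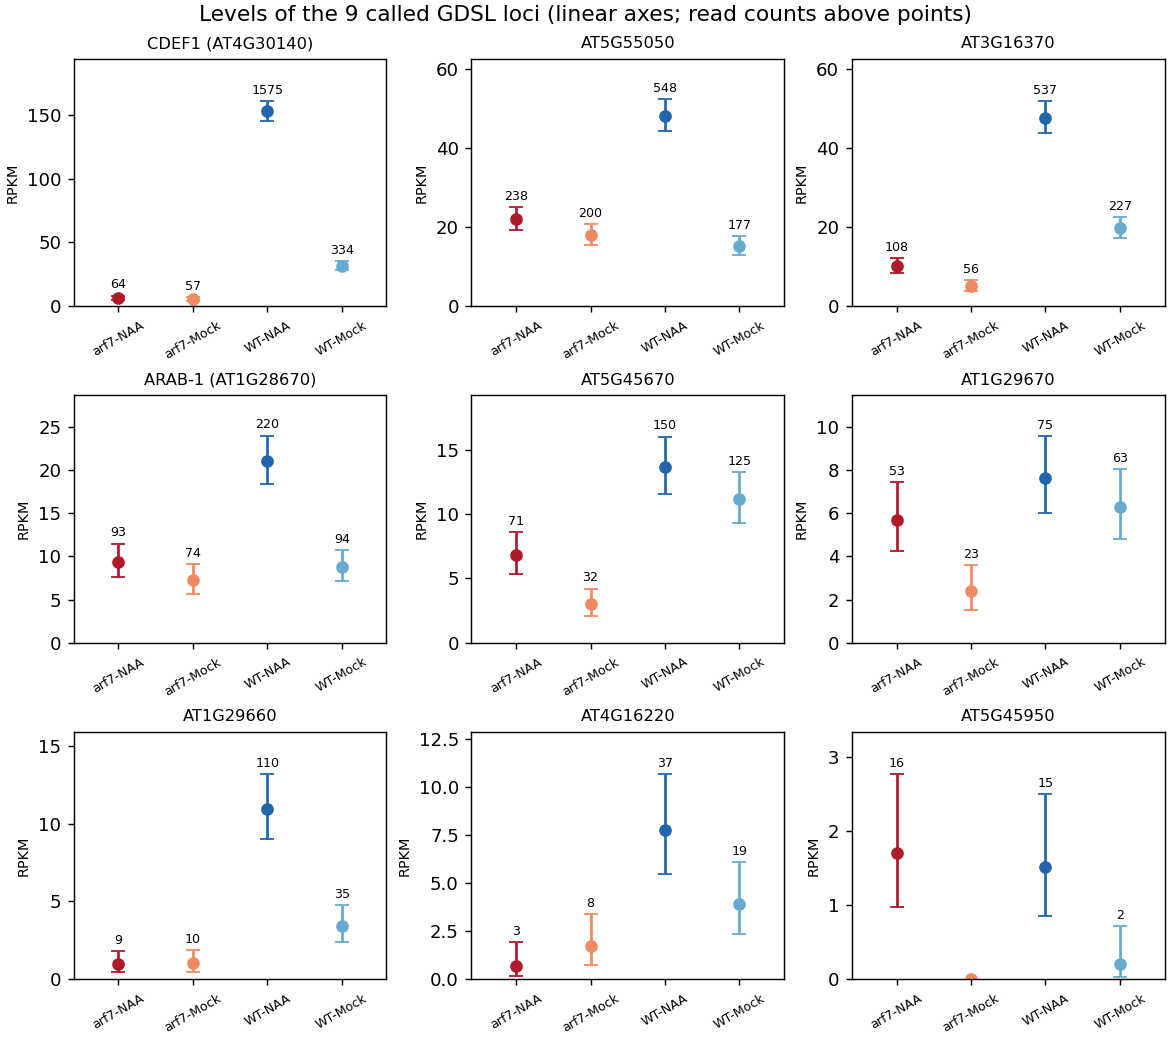
RPKM (linear axes from 0, one scale per panel) of the 9 called GDSL loci in *arf7*-NAA, *arf7*-Mock, WT-NAA and WT-Mock, 1 library each. Bars are exact 95% Poisson intervals of the read count, which is printed above each point, and a count of 0 has no bar. For *CDEF1* the point of WT-NAA, at 1575 reads, stands far above the other 3.

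The first comparison asked which members responded to auxin in wild type roots. In WT-NAA VS WT-Mock, 5 of 60 members tested (8.33%) were higher and 0 were lower, where 0.418% of all 22469 loci tested were higher and 0.668% lower. The 5 that rose were *CDEF1*, AT1G29660, AT5G55050, AT3G16370 and *ARAB-1*. Among the 36 members with at least 20 reads in this comparison the median log2 ratio was 0.15, against -0.02 over all loci with as many reads. 
*CDEF1* encodes a secreted enzyme that degrades cutin, known from pollen and from the zone where lateral roots emerge. It lies at chr4:14738326-14740742 (TAIR10.1, minus strand). It had 64 reads in *arf7*-NAA, 57 in *arf7*-Mock, 1575 in WT-NAA and 334 in WT-Mock, covering 76.1%, 77.1%, 95.4% and 93.8% of its transcript. This corresponds to 6.55 RPKM in *arf7*-NAA, 5.67 in *arf7*-Mock, 153 in WT-NAA and 31.7 in WT-Mock. Both *arf7* libraries were thus below both WT libraries, and WT-NAA stood alone at the top. In WT-NAA VS WT-Mock the log2 ratio was 2.27 (interval 2.10 to 2.44, P = 5.8e-198, exact binomial test). The study gives the source of this RNA as roots in its methods and as primary roots in a figure legend. As cell types were not separated, more cells of a type and more RNA per cell cannot be told apart.

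AT5G55050 showed a different starting point. Its level was 22.1 RPKM in *arf7*-NAA, 18.0 in *arf7*-Mock, 48.2 in WT-NAA and 15.2 in WT-Mock. Hence WT-NAA was the only high library, and the untreated libraries of the 2 genotypes did not differ beyond counting error. The log2 ratio in WT was 1.66 (1.41 to 1.91).

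AT3G16370 had 10.1 RPKM in *arf7*-NAA and 5.10 in *arf7*-Mock, against 47.7 in WT-NAA and 19.8 in WT-Mock. The NAA library was the higher one in each genotype, and the lower WT library was above the higher *arf7* library. Its log2 response was 0.99 in *arf7* (0.51 to 1.48) and 1.27 in WT (P = 2.6e-31, exact binomial test). In *arf7* it missed the 2-fold threshold, although the exact binomial test gave P = 2.2e-05.

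AT1G29660 had only 9 reads in *arf7*-NAA and 10 in *arf7*-Mock, but 110 in WT-NAA and 35 in WT-Mock. In WT its log2 ratio was 1.68 (1.12 to 2.27). *ARAB-1* (AT1G28670), a lipase-like member, had 93 reads in *arf7*-NAA, 74 in *arf7*-Mock, 220 in WT-NAA and 94 in WT-Mock. Its reads in WT-NAA were the highest by far, and its log2 ratio in WT was 1.26 (0.90 to 1.62). The neighbour AT1G28660, 92.1% identical to it, had 12, 6, 9 and 7 reads in the same order, so the large counts were assigned to *ARAB-1*.

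The 250 bases upstream of the annotated starts of these 5 loci are shown, because they were the members raised by NAA in WT. They were read from the TAIR10.1 reference 5′ to 3′ along the strand of the gene, and TGTC, the core of the sequence bound by auxin response factors, is in capitals on either strand, appearing as GACA where it lies on the other strand.
CDEF1, chr4:14740743-14740992, minus strand: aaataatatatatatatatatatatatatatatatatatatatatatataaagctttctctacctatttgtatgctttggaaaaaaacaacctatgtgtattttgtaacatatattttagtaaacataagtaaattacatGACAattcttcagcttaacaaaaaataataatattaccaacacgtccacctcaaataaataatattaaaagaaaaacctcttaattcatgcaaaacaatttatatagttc
AT5G55050, chr5:22337376-22337625, plus strand: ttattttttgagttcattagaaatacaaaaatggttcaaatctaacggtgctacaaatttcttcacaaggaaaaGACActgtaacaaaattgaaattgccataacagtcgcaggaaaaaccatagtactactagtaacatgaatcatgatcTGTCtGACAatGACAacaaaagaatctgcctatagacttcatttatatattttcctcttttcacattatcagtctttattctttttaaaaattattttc
AT3G16370, chr3:5556460-5556709, plus strand: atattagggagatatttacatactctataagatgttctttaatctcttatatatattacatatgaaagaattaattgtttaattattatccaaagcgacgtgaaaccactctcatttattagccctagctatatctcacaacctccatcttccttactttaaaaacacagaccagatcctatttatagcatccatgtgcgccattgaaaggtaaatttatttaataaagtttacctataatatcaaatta
AT1G29660, chr1:10371425-10371674, plus strand: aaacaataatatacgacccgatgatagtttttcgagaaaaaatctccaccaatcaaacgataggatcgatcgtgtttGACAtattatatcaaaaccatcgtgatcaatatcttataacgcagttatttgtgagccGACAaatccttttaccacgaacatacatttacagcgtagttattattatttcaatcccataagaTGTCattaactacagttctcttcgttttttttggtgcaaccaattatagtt
ARAB-1, chr1:10076458-10076707, minus strand: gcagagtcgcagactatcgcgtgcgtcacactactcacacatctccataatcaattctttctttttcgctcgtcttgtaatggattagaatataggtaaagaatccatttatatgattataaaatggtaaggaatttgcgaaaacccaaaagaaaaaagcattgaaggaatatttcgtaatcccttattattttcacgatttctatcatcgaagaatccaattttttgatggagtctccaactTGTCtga
TGTC was present on at least 1 strand in 4 of these 5 windows, with 4 matches at AT5G55050, 3 at AT1G29660, 1 at *CDEF1* and 1 at *ARAB-1*. The window of AT3G16370 held 0. In the window of *CDEF1* the match began 110 bases before the start, and in that of *ARAB-1* 7 bases before it. At AT5G55050, 3 of the 4 matches began 99, 94 and 88 bases before the start, close to each other. Such matches are common. Of the 27443 protein-coding genes with a window of this length, 74.8% held TGTC on either strand with a median of 1 match, and of the 65 members 84.6% did with a median of 2. The longer form TGTCTC occurred in 0 of the 5 windows and in 10.9% of all windows, and TGTCGG occurred in 1 of the 5, that of AT1G29660, and in 4.16% of all windows. Neither CACGTG (6.49% of all windows) nor CGGCG (7.08%), which LBD proteins bind, was found in any of the 5. These TGTC matches include those inside TGTCTC and TGTCGG.

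The second comparison asked the same of *arf7* roots. In *arf7*-NAA VS *arf7*-Mock, 2 of 62 members tested (3.23%) were higher and 0 lower, where 0.39% of all 22557 loci tested were higher and 0.386% lower. None of the 5 members raised in WT was among them, but AT3G16370 missed only the 2-fold threshold (log2 ratio 0.99, P = 2.2e-05, exact binomial test). How many of all loci raised in WT were also raised in *arf7* was not counted, so this is no result about the members. The median log2 ratio was -0.02 over the 33 members with at least 20 reads and -0.02 over all loci with as many reads. AT5G45670 had 71 reads in *arf7*-NAA and 32 in *arf7*-Mock, against 150 in WT-NAA and 125 in WT-Mock. Its log2 ratio was 1.19 in *arf7* (0.57 to 1.84, P = 6.8e-05, exact binomial test) and 0.29 in WT (-0.06 to 0.65). AT5G45950 had 16 reads in *arf7*-NAA and 0 in *arf7*-Mock, against 15 in WT-NAA and 2 in WT-Mock. With the 0 set to 3 reads its log2 ratio in *arf7* was at least 2.46 (P = 1.2e-05, exact binomial test), and in WT it was 2.94 (0.83 to 6.11), which was not called. Both NAA libraries were thus above both Mock libraries, on few reads. The shoot and seed markers were also higher in *arf7*-NAA than in *arf7*-Mock (618 against 103 reads and 30 against 1 read), and their part in these results was not tested.

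The difference between the NAA responses, *arf7* minus WT, was tested on all 4 libraries with an exact conditional test. Of 65 members 2 (3.08%) had a smaller response in *arf7* and 0 a larger one, where 0.764% of all loci had a smaller and 0.499% a larger response. For *CDEF1* the log2 response was 0.21 in *arf7* (-0.33 to 0.75) and 2.27 in WT, a difference of -2.06 (-2.63 to -1.49, P = 7.7e-13, exact conditional test). For AT5G55050 it was 0.29 in *arf7* and 1.66 in WT, a difference of -1.37 (-1.75 to -0.99, P = 1.9e-13, exact conditional test). Neither call remained under an assumed coefficient of variation of 0.2 in edgeR. The endodermis marker *CASP1* had a log2 response of 0.02 in *arf7* and 0.83 in WT, a difference of -0.80 (-0.95 to -0.66), which was under 2-fold. Among the other root markers the difference was -0.49 for *EXPA7* (-0.79 to -0.19) and -0.19 for *SCR* (-0.38 to 0.01). It was 0.13 for *PYK10*, the only root marker above 0. The median over the 7 root markers was -0.21, and their part in these results was not tested. The other members that rose in WT did not pass. *ARAB-1* had a difference of -0.89 (-1.47 to -0.30, P = 0.0025, exact conditional test) and AT1G29660 of -1.79 (-3.38 to -0.20, P = 0.014, exact conditional test). That of AT3G16370 was -0.28 (-0.82 to 0.26, P = 0.30, exact conditional test). The plot of the responses places *CDEF1* and AT5G55050 far to the right and close to the horizontal zero line, and AT3G16370 near the diagonal.

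**Figure D3:**
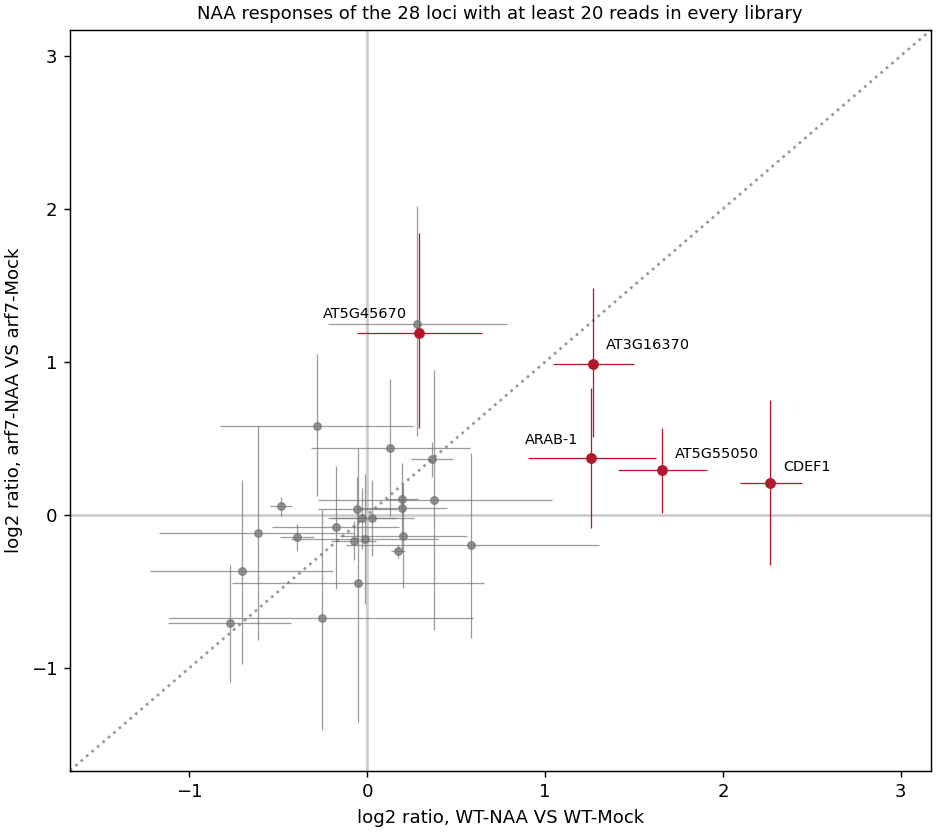
Log2 ratio of *arf7*-NAA VS *arf7*-Mock (vertical) against that of WT-NAA VS WT-Mock (horizontal) for the 28 GDSL loci with at least 20 reads in every library, with bars for 95% intervals of counting error. Red points are the 5 of these loci called in either comparison and the dotted line marks equal responses; AT1G29660 and AT5G45950, also called, had too few reads to be drawn.

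Without added auxin, *arf7*-Mock VS WT-Mock gave 0 higher and 4 lower of 60 members tested (6.67%), where 0.466% of all 22537 loci tested were higher and 0.577% lower. The 4 that were lower in *arf7*-Mock were *CDEF1*, AT3G16370, AT5G45670 and AT1G29670. The comparison shares the *arf7*-Mock library with *arf7*-NAA VS *arf7*-Mock. A low count there enters both, as for AT5G45670 with 32 reads. *CDEF1* fell to 57 reads in *arf7*-Mock, against 334 in WT-Mock (log2 ratio -2.48, -2.92 to -2.08, P = 3.8e-46, exact binomial test). The log2 ratio was -1.95 for AT3G16370 (-2.40 to -1.53) and -1.90 for AT5G45670 (-2.51 to -1.33). AT1G29670 had 53 reads in *arf7*-NAA and 23 in *arf7*-Mock, against 75 in WT-NAA and 63 in WT-Mock. Of the 4 libraries, *arf7*-Mock alone was low. The shoot marker *LHCB1.3* was also lowest there, with 530 reads in *arf7*-NAA and 81 in *arf7*-Mock, against 238 in WT-NAA and 317 in WT-Mock. *RBCS1A* had 72, 15, 12 and 23 reads and *RCA* 14, 5, 5 and 9 in the same order, and the remaining shoot marker had at most 3 in any library. In *arf7*-Mock VS WT-Mock the log2 ratio was -0.55 for *RBCS1A* (-1.59 to 0.45) and -0.78 for *RCA* (-2.71 to 0.95). These counts are too low to tell whether they shared the pattern of *LHCB1.3*. The part of these markers in the results was not tested. The log2 ratio of AT1G29670 in *arf7*-Mock VS WT-Mock was -1.39 (-2.14 to -0.68). AT5G55050 and *ARAB-1* were not called here, with log2 ratios of 0.24 (-0.06 to 0.54) and -0.28 (-0.74 to 0.18). Over the 37 members with at least 20 reads the median was -0.23, against 0.01 over all loci with as many reads.

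After NAA, *arf7*-NAA VS WT-NAA gave 0 higher and 7 lower of 64 members tested (10.9%), where 0.591% of all 22489 loci tested were higher and 0.805% lower. This comparison shares the WT-NAA library with WT-NAA VS WT-Mock, so a high count there enters both. *CDEF1* had the largest log2 ratio of any member, -4.54 (-4.93 to -4.18), with 64 reads in *arf7*-NAA against 1575 in WT-NAA. AT4G16220 had 3 reads in *arf7*-NAA and 8 in *arf7*-Mock, against 37 in WT-NAA and 19 in WT-Mock. Its log2 ratio in *arf7*-NAA VS WT-NAA was -3.55 (-5.89 to -1.89, P = 2.8e-08, exact binomial test), and reads covered only 35.5% of its listed transcript even in WT-NAA. That of AT1G29660 was -3.53 (-4.70 to -2.56) and that of AT3G16370 was -2.24 (-2.55 to -1.94). *ARAB-1* and AT5G55050 had log2 ratios of -1.16 and -1.13. AT5G45670, with 71 reads in *arf7*-NAA against 150 in WT-NAA, lay at the 2-fold threshold (P = 7.4e-07, exact binomial test). On the other side, AT1G28580 had 99 reads in *arf7*-NAA against 54 in WT-NAA and stayed just under 2-fold (log2 ratio 0.95, 0.46 to 1.46, P = 6.8e-05, exact binomial test). Its reads covered at most 18.5% of either of its 2 listed models in *arf7*-NAA and 13.4% in WT-NAA, so this ratio rests on a small part of the transcript. The median over the 38 members with at least 20 reads was -0.20, against 0.01 over all loci with as many reads.

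**Figure D4:**
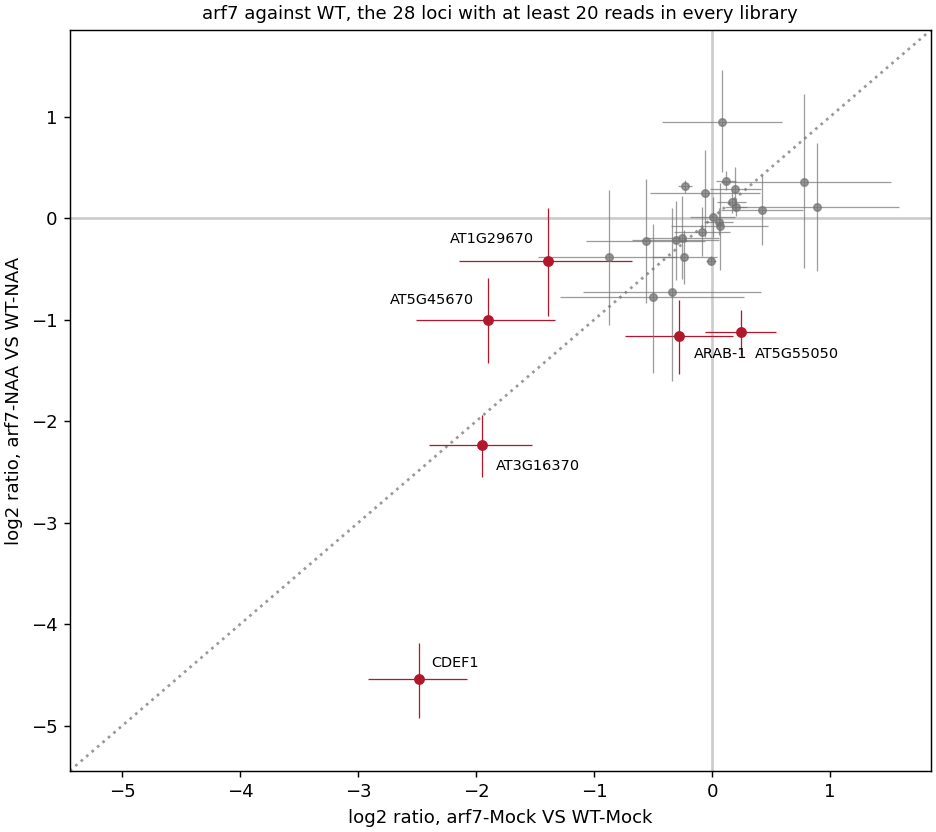
Log2 ratio of *arf7*-NAA VS WT-NAA (vertical) against that of *arf7*-Mock VS WT-Mock (horizontal) for the 28 GDSL loci with at least 20 reads in every library, with 95% intervals of counting error. The 6 red points were called in either comparison and all lie below the horizontal zero line, with *CDEF1* lowest at -4.54; *ARAB-1* and AT5G55050 lie near the vertical zero line.

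The called members thus showed unlike patterns across the libraries. *CDEF1*, AT3G16370 and AT5G45670 were called lower in *arf7* under both conditions. *ARAB-1* and AT5G55050 were called lower in *arf7* with NAA and not without it, and of these only AT5G55050 passed the test of the difference. AT1G29660 had a log2 ratio of -1.74 in *arf7*-Mock VS WT-Mock (-2.92 to -0.70), which narrowly missed the threshold (P = 2.9e-04, exact binomial test).

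Of the 28 members with at least 20 reads in each library, 14 had a highest level of at most 1.5 times their lowest. Within single comparisons, 20 of the 28 stayed within 1.5-fold in *arf7*-NAA VS WT-NAA, 21 in *arf7*-Mock VS WT-Mock, 21 in WT-NAA VS WT-Mock and 23 in *arf7*-NAA VS *arf7*-Mock. AT3G53100 had 40.2 RPKM in *arf7*-NAA and 40.8 in *arf7*-Mock, against 39.9 in WT-NAA and 40.7 in WT-Mock, and these levels did not differ beyond counting error. Some of the deepest members had small ratios that exceeded counting error. AT2G23540 had 461 RPKM in *arf7*-NAA, 443 in *arf7*-Mock, 371 in WT-NAA and 518 in WT-Mock, a log2 response of 0.06 in *arf7* (P = 0.064, exact binomial test) and -0.48 in WT (-0.54 to -0.42). AT1G74460 had a log2 ratio of -0.15 in *arf7* (-0.23 to -0.06) and -0.39 in WT (-0.49 to -0.30). For *GLL22* it was -0.24 in *arf7* (-0.28 to -0.19) and 0.17 in WT (0.13 to 0.21). No library has a replicate, so shifts of this size cannot be set against the spread between roots grown separately. *MVP1* had 208, 194, 193 and 169 RPKM in *arf7*-NAA, *arf7*-Mock, WT-NAA and WT-Mock.

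The GLIP group comprises 7 members named for GLIP1, a secreted lipase that acts in defence against fungi and bacteria. None was called in any comparison or in the difference between the NAA responses. As only 3.13% of all loci were, 0 of 7 is no result about the group. *GLIP2*, which is known to dampen auxin signalling in resistance to bacteria, had 93 reads in *arf7*-NAA and 156 in *arf7*-Mock, against 112 in WT-NAA and 195 in WT-Mock. Each NAA library was below both Mock libraries. Its log2 ratio under NAA was -0.71 in *arf7* (-1.09 to -0.33, P = 1.7e-04, exact binomial test) and -0.77 in WT (-1.12 to -0.43, P = 5.8e-06, exact binomial test), short of 2-fold in each. *GLIP3* had 43 reads in *arf7*-NAA and 57 in *arf7*-Mock, against 53 in WT-NAA and 88 in WT-Mock. *GLIP4* had 9 reads in *arf7*-NAA and 19 in *arf7*-Mock, against 10 in WT-NAA and 30 in WT-Mock. As for *GLIP2*, the NAA libraries had the fewest reads, but the exact binomial test gave P = 0.088 in *arf7* and P = 0.0023 in WT for *GLIP4*. *GLIP5* had 142, 161, 142 and 126 reads in *arf7*-NAA, *arf7*-Mock, WT-NAA and WT-Mock, without a common direction. *GLIP1* had at most 3 reads in any library, *GLIP6* at most 2 and *GLIP7* at most 5, too few for a difference to be detectable at this depth.

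The EXL group contains extracellular lipases of the pollen coat. Of its 6 genes, *EXL3* (AT1G75900) had 6 reads in *arf7*-NAA and 11 in *arf7*-Mock, against 26 in WT-NAA and 35 in WT-Mock. The *arf7* libraries were lower, with log2 ratios of -2.04 under NAA (-3.61 to -0.72) and -1.60 without it (-2.73 to -0.59), and neither was called, at P = 6.1e-04 and P = 6.2e-04 in the exact binomial test. *EXL1*, *EXL2* and *EXL5* had at most 4 reads in any library, and *EXL4* and *EXL6* had no read in any. At 0 reads, counting error allows for up to 3.

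Taking members within 25 kb of each other, 25 of the 65 fell into 8 groups. The largest, at chromosome 1, held *GLIP5*, *GLIP2*, *GLIP3*, *GLL22*, AT1G54010 and *MVP1*, with mean levels between 7.42 and 811 RPKM. Of its 6 members 0 were called, which is no result about the group, as only 3.13% of all loci were called. A group of 5 members ending in *ARAB-1* had 1 called member. AT1G29660 and AT1G29670 lie next to each other, share 78.4% of their coding bases and were both called, but in different comparisons. AT1G29660 was called in the 2 comparisons that include WT-NAA, and AT1G29670 was called only in *arf7*-Mock VS WT-Mock. AT4G16230, next to AT4G16220, had 8 reads in *arf7*-NAA and 5 in *arf7*-Mock, against 24 in WT-NAA and 16 in WT-Mock, and was not called.

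Characterised GDSL enzymes whose deposited description lacks the letters GDSL were not counted as members. *LTL1*, a lipase that raises lithium tolerance, had 24 reads in *arf7*-NAA and 0 in *arf7*-Mock, against 4 in WT-NAA and 1 in WT-Mock. It was called higher in *arf7*-NAA VS *arf7*-Mock, at a log2 ratio of at least 3.04, and in *arf7*-NAA VS WT-NAA, at 2.66 (1.12 to 4.65). The library in which it was high also had the most shoot and seed marker reads, whose part was not tested. *ESM1*, which modifies glucosinolate breakdown, had 0 reads in *arf7*-NAA, 1 in *arf7*-Mock, 0 in WT-NAA and 4 in WT-Mock.

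As *CDEF1* degrades cutin, the genes that make and export the related polyester suberin were set beside it. Of 17 such genes, 0 were called in *arf7*-NAA VS WT-NAA, where 0.591% of all loci tested were higher and 0.805% lower. Likewise 0 were called in WT-NAA VS WT-Mock, where 0.418% were higher and 0.668% lower. At such shares 0 of 17 is no result about these genes. Their median log2 response to NAA was -0.08 in *arf7* and -0.21 in WT. In *arf7*-Mock VS WT-Mock 1 was higher and 1 lower (0.466% and 0.577% of all loci), and in *arf7*-NAA VS *arf7*-Mock 1 was lower (0.386%). *MYB41*, a transcription factor that activates suberin synthesis, had 119 reads in *arf7*-NAA and 261 in *arf7*-Mock, against 131 in WT-NAA and 131 in WT-Mock. Only *arf7*-Mock was high, with a log2 ratio of 1.06 in *arf7*-Mock VS WT-Mock and -1.09 in *arf7*-NAA VS *arf7*-Mock. *FAR1*, a fatty acyl reductase, had 43 reads in *arf7*-NAA and 17 in *arf7*-Mock, against 64 in WT-NAA and 67 in WT-Mock, and was called lower in *arf7*-Mock VS WT-Mock at -1.91. The fatty acid hydroxylase gene *CYP86A1*, the most abundant of the list, had log2 responses to NAA of 0.32 in *arf7* and -0.67 in WT. Its difference of 0.99 (0.88 to 1.11) did not reach 2-fold, while that of the transcription factor gene *MYB93*, 1.10 (0.91 to 1.29), did. *MYB41* was called in the other direction, with a difference of -1.12 (-1.61 to -0.63).

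Among 10 genes of the lateral root module, *LBD29* had 7 reads in *arf7*-NAA and 4 in *arf7*-Mock, against 78 in WT-NAA and 30 in WT-Mock. The 2 *arf7* libraries were low and WT-NAA was the highest. *LBD29* was called higher in WT-NAA VS WT-Mock (1.41). The *arf7* library was the lower one without NAA (-2.84) as well as with it (-3.40). *PRH1*, a pathogenesis-related protein homologue, rose under NAA in WT (1.63), and in *arf7* it had 11 reads with NAA against 4 without. In *arf7*-NAA VS WT-NAA it was lower at -2.71 and *LBD18* at -1.73. The auxin importer gene *LAX3* was called in none, with a log2 response of -0.11 in *arf7* and 0.46 in WT. Of the 10 genes, 2 were higher and 0 lower in WT-NAA VS WT-Mock, where 0.418% of all loci were higher and 0.668% lower. In *arf7*-NAA VS *arf7*-Mock 0 of 9 tested were called, where 0.39% of all loci were higher and 0.386% lower. At such shares 0 of 9 is no result about these genes. In *arf7*-NAA VS WT-NAA 3 were called, each of them lower in the mutant, as were 0.805% of all loci. The list was chosen with earlier results of these data known. *PRH1*, which is in both counts of called genes, was picked by the study from these same libraries. It was picked for rising under auxin in WT and being regulated by *ARF7*, so its calls are no independent result. In *arf7* the log2 response of *LBD29* was 0.85 (-1.13 to 3.07), and the interval of that of *PRH1* ran from -0.25 to 3.61. The differences from the WT responses were -0.13 (-2.05 to 2.10) for *PRH1* and -0.56 (-2.65 to 1.77) for *LBD29*, and neither was called.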

How the data were processed

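Root RNA was sequenced in 4 libraries, 1 for each condition, and samples were assigned from their labels. Per library, the authors deposited the transcript models with their count of uniquely assigned reads, the RPKM (count per kilobase of transcript per 1000000 assigned reads) and the coverage as a percent of transcript length. RPKM recomputed from the deposited counts was the same. Aligner, genome build and multimapping rule are not given in the sources used here. The authors' 4 tables of log2 ratios, P values and false discovery rates were not used.

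Counts and RPKM were summed over the models of a locus. The study's thresholds (P under 0.0001, log2 ratio of at least 1 in size) were applied to a two-sided exact binomial test with the library totals as null and, for the difference between NAA responses, an exact conditional test (Python 3.11.15, NumPy 2.4.6, pandas 2.3.3, SciPy 1.17.1). Ratios with a 0 used 3 reads in its place and are bounds, and no ratio was formed between 2 counts of 3 or fewer. The tests were run on simulated counts that held counting error only, so spread between replicates was not covered. Intervals (95%) and tests cover counting error only, and whether the libraries came from pooled plants is not stated. Library totals were 7026529 in *arf7*-NAA, 7230317 in *arf7*-Mock, 7416200 in WT-NAA and 7571027 in WT-Mock. Alternatives used edgeR 4.0.16 and DESeq2 1.42.0 scaling, the model with the most reads, a minimum of 20 reads, adjusted P under 0.001, an assumed coefficient of variation of 0.2 or 0.4 in edgeR, and 1 added read.

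Sequences and coding lengths came from RefSeq TAIR10.1. Of 23239 loci with deposited coordinates compared, 99.99% overlap its gene of the same ID. Coding sequences were aligned globally with Biopython 1.88. Genes named are all called members, the 10 with the highest mean RPKM, *CDEF1*, the GLIP and EXL groups, *ESM1*, *MVP1* and *LTL1*, and for other lists the called genes and up to 3 of the most abundant. AT1G28580, *SCR*, *SHR*, *COBL9*, *EXPA7*, neighbours and nearest relatives were named after their values were seen. The members and all lists were chosen with earlier results of these data known.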

Additional observations from a re-analysis of the deposited data

Results flagged for a closer look

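The response of 2 members to NAA differed between the *arf7* and WT libraries by the exact conditional test, which covers counting error only. The log2 response of *CDEF1* in *arf7* minus that in WT was -2.06, with 64 and 57 reads in *arf7*-NAA and *arf7*-Mock against 1575 and 334 in WT-NAA and WT-Mock. That of AT5G55050 was -1.37, with 238 and 200 reads in *arf7*-NAA and *arf7*-Mock against 548 and 177 in WT-NAA and WT-Mock. Each rests on 1 library per condition, and neither passed under an assumed coefficient of variation of 0.2 in edgeR.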

How the results depend on the processing

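Scaling by edgeR's trimmed mean of M values or by DESeq2's size factors, and the model with the most reads, kept all 20 calls of members, and the largest shift of a named member's log2 ratio under scaling was 0.023. A minimum of 20 reads, adjusted P under 0.001 and 1 added read kept 19 each. The members called in *arf7*-NAA VS *arf7*-Mock were then 1 with the minimum of 20 reads, which removes AT5G45950, and 1 with adjusted P under 0.001, which removes AT5G45670. AT3G16370 passed in that comparison with either scaling (log2 ratio 1.01), and AT5G45670 missed in *arf7*-NAA VS WT-NAA with 1 added read (-0.99). What ended most calls was an assumed spread between replicates, which 1 library per condition cannot measure. With a coefficient of variation of 0.2 in edgeR, 7 of the 20 calls remained, 1 in WT-NAA VS WT-Mock, 0 in *arf7*-NAA VS *arf7*-Mock, 2 in *arf7*-Mock VS WT-Mock, 4 in *arf7*-NAA VS WT-NAA and 0 in the difference between the NAA responses, while calls over all loci fell to 27, 46, 45, 96 and 42, against 244, 175, 235, 314 and 296 with counting error alone. With 0.4 the only call kept was *CDEF1* in *arf7*-NAA VS WT-NAA (1 member there and 0 in the others), and all loci had 2, 8, 1, 17 and 0. The smaller number of calls follows from the added variance. Leaving out a library was not possible. No paired analysis was possible because each condition has 1 library. Ranks of the 10 most abundant members were the same for the model with the most reads.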
